A study of Mus musculus with 14 samples.

Results

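The 10 genes described here encode the folding chaperones of the endoplasmic reticulum (ER) that belong to the HSP70, HSP90 and lectin families, together with the J-domain and nucleotide exchange co-factors of the ER HSP70. They were taken by name from a list: Hspa5 (BiP), Hyou1 (GRP170), Sil1, Hsp90b1 (GRP94), Dnajb9 (ERdj4), Dnajb11 (ERdj3), Dnajc3 (P58IPK), Dnajc10 (ERdj5), Calr (calreticulin) and Canx (calnexin). They are 10 of the 24411 genes counted, and all 10 passed the filter on low counts that left 9644 genes to test. The rule names them by function and uses no measured value, but the set was drawn up with earlier results of these data known.

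The study profiled polyadenylated liver RNA by sequencing in 14 libraries from male mice, littermates aged 5 to 7 months. Controls (WT) carried Rbbp5 flox/flox alleles without Alb-Cre, and knockouts (LKO) carried the same floxed alleles with Alb-Cre (+/-), so floxed alleles were present in every group. RBBP5 is a core subunit shared by the MLL/SET1 family of histone methyltransferase complexes, and Alb-Cre acts in hepatocytes, so the other cells of the liver keep the gene. Mice of each genotype received tunicamycin at 0.05 mg/kg, or the vehicle alone (3% DMSO in PBS), as an intraperitoneal injection of 500 µl between 9 and 10 am, and liver was collected 8 hours later. There were 3 libraries of WT with vehicle, 3 of WT with tunicamycin, 4 of LKO with vehicle and 4 of LKO with tunicamycin. The sample titles spell the knockout as RRBP5 LKO, while the genotype labels name Rbbp5. The labels do not say that each library is a separate mouse, so p-values measure the spread between these samples.

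Tunicamycin blocks the first step of N-linked glycosylation, and unglycosylated proteins then misfold in the ER. The ER answers with the unfolded protein response, in which the sensors IRE1, PERK and ATF6 are held inactive in part by BiP, and in which ATF6 and XBP1 raise transcription of the chaperone genes. BiP binds exposed hydrophobic stretches in a cycle driven by ATP. J-domain proteins deliver clients and stimulate its ATPase, while GRP170 and SIL1 release ADP from it. GRP94 finishes a narrower set of clients, and calreticulin and calnexin hold glycoproteins through their trimmed glucose-bearing glycans. Hepatocytes secrete most plasma proteins and so carry a large ER folding load.

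The promoters are shown first because the ER stress response element (ERSE) is the classic ATF6 site of this gene family. The element was searched as CCAAT and CCACG separated by 9 bases of any kind, on both strands, in windows of 300 bases (250 before and 50 after the start) from RefSeq (GRCm38.p6). Windows were held for 8 of the 10 genes, all but Hyou1 and Sil1. It was found in 5 of these 8 windows and in 0.119% of all 32851 windows. The related ERSE-II, ATTGG and CCACG separated by 1 base, was found in 1 of the 8 and in 0.0365% of all windows. The matches are aligned below in the direction of the motif, with its fixed letters in capitals, so that the genes that share the element can be set against their responses.
Hspa5 (chr2:34772025-34772043, bases -65 to -47): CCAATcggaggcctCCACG
Hsp90b1 (chr10:86705638-86705656, bases -212 to -194): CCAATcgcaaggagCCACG
Hsp90b1 (chr10:86705533-86705551, bases -107 to -89, on the opposite strand): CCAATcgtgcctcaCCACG
Calr (chr8:84847075-84847093, bases -162 to -144, on the opposite strand): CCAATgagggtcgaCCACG
Canx (chr11:50325800-50325818, bases -145 to -127): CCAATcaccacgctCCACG
Dnajc3 (chr14:118937827-118937845, bases -105 to -87): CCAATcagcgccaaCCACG
Dnajb11, ERSE-II (chr16:22857852-22857862, bases 8 to 18 after the start): ATTGGcCCACG
In the GENCODE vM21 annotation the sites of Hsp90b1, Calr, Canx and Dnajc3 lie before the gene record. Those of Hspa5 and Dnajb11 lie in an exon annotated as UTR, since the GENCODE record of Hspa5 begins ahead of its RefSeq start. Dnajb9 and Dnajc10 held neither element. The core of the XBP1 site, TGACGTGG, and the C/EBP-ATF site, TTGCATCA, were found in 0 of the 8 windows and in 0.676% and 0.895% of all windows. The short boxes inside the ERSE were common by comparison: CCAAT was in 7 of the 8 and in 37.4% of all windows, and CCACG was in 7 of the 8 and in 32.8%.

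Hsp90b1 and Canx are printed at length because both carry the full element and their changes with tunicamycin in WT were of unlike size, as the values below show. Each stretch runs on the gene's strand and ends before both the RefSeq start and the GENCODE record, with the ERSE in capitals.
Hsp90b1 (chr10:86705510-86705694, minus strand, 185 bases): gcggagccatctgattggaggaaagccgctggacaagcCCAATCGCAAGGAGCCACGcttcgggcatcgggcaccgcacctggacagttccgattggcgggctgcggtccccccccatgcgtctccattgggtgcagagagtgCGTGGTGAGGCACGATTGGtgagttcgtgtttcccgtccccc
Canx (chr11:50325674-50325923, minus strand, 250 bases): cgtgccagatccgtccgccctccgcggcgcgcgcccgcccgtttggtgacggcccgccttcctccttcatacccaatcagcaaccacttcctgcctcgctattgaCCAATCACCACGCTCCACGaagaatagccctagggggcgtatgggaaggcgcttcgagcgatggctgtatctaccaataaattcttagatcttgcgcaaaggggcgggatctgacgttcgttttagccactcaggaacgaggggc
A match of letters is a description of these windows and says nothing of whether a factor bound there.

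Libraries held between 6507018 and 13519421 sense-strand reads in genes, of which the ribosomal precursor Rn45s took 72.5% to 75.5%, and the 10 chaperone genes together drew 6972 to 19700 reads per library. Libraries 3 and 4 of LKO vehicle were nearly the same library by their counts (chi-square per degree of freedom 1.12, against 3.05 to 25.5 in the 17 other pairs of libraries within a group). Their reads were added together and treated as a single sample, giving 13 samples in the fits. CPM are read counts scaled to a common library size that includes Rn45s, so they are lower than on a scale without it. Rbbp5 itself was at 4.07, 6.41 and 5.10 CPM in WT vehicle and 5.37, 5.03 and 5.71 in WT tunicamycin. In LKO it was at 4.15, 1.90 and 2.79 with vehicle and 2.80, 3.12, 3.46 and 2.06 with tunicamycin. The sample labelled LKO vehicle 1 lay inside the WT vehicle range. Without it the chaperone genes called, out of 10, were 5 for tunicamycin in WT, 0 in LKO, 0 between genotypes with vehicle and 6 after tunicamycin. Over all 9869 genes then tested the calls were 44, 0, 1 and 78 in the same order. The log2 fold change of Rbbp5 in LKO against WT was -0.87 ± 0.26 (SE) with vehicle and -0.90 ± 0.26 after tunicamycin (edgeR adjusted p 0.330 and 0.105). The 6 hepatocyte markers summed to between 15008 and 26557 CPM in every sample, with Alb the highest. The 6 bile duct markers summed to 8.60 to 11.7 CPM in WT vehicle, 8.49 to 42.5 in WT tunicamycin, and, in LKO, 17.4 to 55.2 with vehicle and 35.8 to 111 with tunicamycin. Spp1 supplied most of that sum, while Krt19, Krt7 and Epcam each stayed under 1 CPM in every sample. The 6 stellate cell and fibroblast markers summed to 62.9 to 104 CPM in WT vehicle, 87.7 to 122 in WT tunicamycin, 108 to 149 in LKO vehicle and 101 to 158 in LKO tunicamycin, so the vehicle groups did not overlap. The 6 Kupffer cell and macrophage markers summed to 43.8 to 50.9, 49.9 to 63.3, 33.4 to 55.5 and 51.4 to 103 CPM in the same order, with LKO tunicamycin wholly above WT vehicle but overlapping WT tunicamycin. The 6 endothelial markers overlapped between all groups, at 57.3 to 86.6 CPM. The part of other cells in the results was not tested, and in whole liver fewer cells of a type and less RNA per cell cannot be told apart. Markers of 2 secretory cell types with much ER were near 0: the 6 of pancreatic acinar cells summed to at most 2.86 CPM, and the 4 of plasma and B cells that are in the files to at most 2.25.

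In WT liver tunicamycin raised 4 of the 10 genes past the test: Hspa5, Hsp90b1, Hyou1 and Dnajb11. None fell past it. Over all genes tested 0.363% changed, and 0.29% rose (edgeR quasi-likelihood test, Benjamini-Hochberg adjusted p under 0.05 over 9644 genes, used throughout). The median log2 fold change of the 10 was 0.75, against 0.01 over all genes. The WT vehicle and WT tunicamycin samples did not overlap for 8 of the 10, all but Dnajb9 and Sil1, where 17.3% of all genes did not overlap. The count depended on single samples: 0 were called when WT tunicamycin 1, or vehicle sample 1 or 2 of WT, was left out, 1 without WT vehicle 3, 2 without LKO tunicamycin 3 or LKO tunicamycin 4, and 7 without WT tunicamycin 3. It was 7 with DESeq2 or with no filter on low counts, the additions being Calr, Dnajc3 and Dnajc10 in both, 1 with only these 2 groups fitted, and 0 or 1 on the deposited FPKM values (a level per transcript length and sequencing depth). Calls over all genes moved as well, from 35 in the full fit. They were 0 without WT tunicamycin 1, WT vehicle 1 or WT vehicle 2, and 2 without WT vehicle 3. Without LKO tunicamycin 3, LKO tunicamycin 4 and WT tunicamycin 3 they were 9, 8 and 615. With DESeq2 they were 150, with no filter 289 of 16251 genes tested, with only these 2 groups 7, and on FPKM 0 to 6.

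In LKO liver the same dose changed 0 of the 10 by edgeR, against 0.0311% of all genes. At an unadjusted p under 0.05 there were 3, Dnajc10, Calr and Dnajb11, where 12.2% of all genes passed. DESeq2 also called 0 of the 10, and 35 of all 9644 genes. The median log2 fold change of the 10 was 0.20, against 0.00 over all genes. The vehicle and tunicamycin samples of LKO overlapped for each of the 10, where 11.6% of all genes did not overlap.

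Between genotypes after tunicamycin, 6 of the 10 were lower in LKO past the test: Hspa5, Hyou1, Hsp90b1, Dnajb11, Dnajb9 and Dnajc3. Over all genes 0.861% differed, and 0.55% were lower. All 10 had a log2 fold change below 0, as had 52% of all genes, with a median of -0.72 against -0.01 over all genes. For Sil1 and Dnajc10 that sign turned with total count scaling and with FPKM. WT and LKO samples stood wholly apart for 7 of the 10, all but Dnajb9, Dnajc10 and Sil1, where 12.9% of all genes did not overlap. This comparison shares the 3 WT tunicamycin samples with the WT comparison above. The count was 0 without WT tunicamycin 1, 2 without LKO tunicamycin 3, 3 without LKO tunicamycin 4, 3 with only these 2 groups fitted and 0 on FPKM values. Calls over all genes in these fits were 0, 12, 14 and 27, and 7 to 39 on FPKM, against 83 in the full fit. Below, values are CPM scaled by the trimmed mean of M-values (TMM), and levels of different genes are compared only per length.

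**Figure D1:**
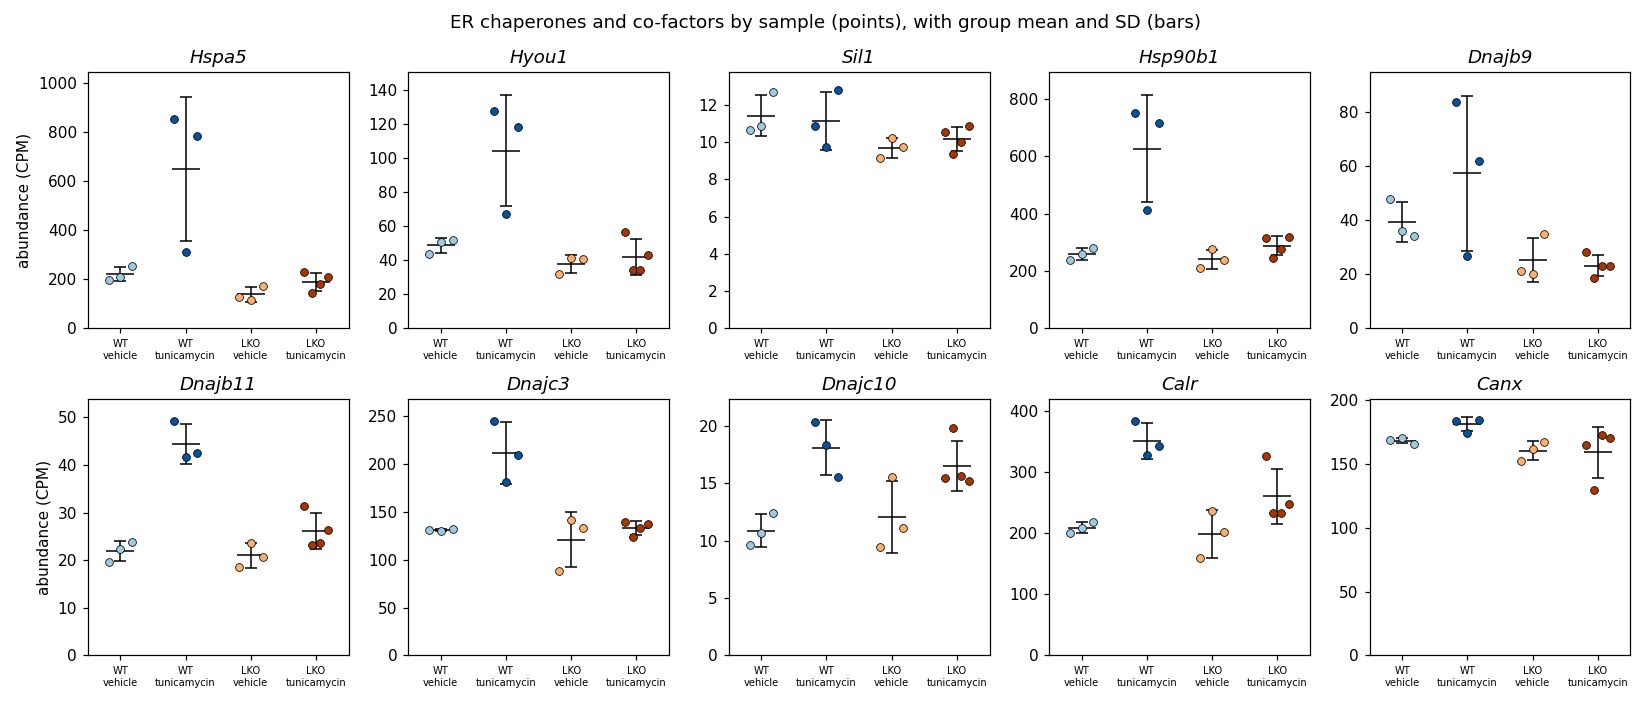
Abundance of each of the 10 genes (CPM, vertical axis from 0) in the 4 groups; points are samples and bars are the group mean and SD. For Hspa5, Hsp90b1, Hyou1, Dnajb11 and Dnajc3, and narrowly for Calr and Canx, the 3 WT tunicamycin samples lie above every other sample. For Canx and Sil1 the 4 groups lie at nearly the same height.

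Hspa5 (mm10, chromosome 2, 34772090 to 34776529) encodes BiP, the only conventional HSP70 of the ER lumen and the hub of the set. It was at 197, 211 and 253 CPM in WT vehicle and 854, 313 and 786 CPM in WT tunicamycin. In LKO it was at 127, 117 and 173 CPM with vehicle and 229, 142, 181 and 207 CPM with tunicamycin. WT tunicamycin 1 and 3 stood far above the rest, WT tunicamycin 2 only slightly above the highest vehicle sample, and every LKO tunicamycin sample lay within or below the range of WT vehicle. Tunicamycin gave a log2 fold change of 1.57 ± 0.29 (SE) in WT (edgeR adjusted p 0.0388) and 0.45 ± 0.27 in LKO (0.544). It was -1.78 ± 0.27 for LKO against WT after tunicamycin (edgeR adjusted p 0.0102), a ratio of group means of 3.43 in favour of WT. With vehicle it was -0.66 ± 0.29 (edgeR adjusted p 0.557), although the 3 LKO samples were all below the 3 WT samples. The WT call ended without any of the 3 WT vehicle samples, WT tunicamycin 1, LKO tunicamycin 3 or LKO tunicamycin 4, with log2 fold changes of 1.32 to 1.66, and with the 2-group fit and FPKM. The genotype call ended without WT tunicamycin 1, at -1.54 (edgeR adjusted p 0.0797), and in the 3 FPKM fits, at -1.48 to -1.50 (limma adjusted p 0.0554 to 0.1002).

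Hyou1 (chromosome 9, 44379490 to 44392369) encodes GRP170, a large HSP70 relative that exchanges nucleotide on BiP and also holds clients. It was at 43.7, 50.7 and 51.7 CPM in WT vehicle and 128, 67.3 and 118 CPM in WT tunicamycin. LKO samples were at 31.6, 41.0 and 40.8 CPM with vehicle and 56.5, 34.2, 34.3 and 42.8 CPM with tunicamycin. As for Hspa5, WT tunicamycin 2 was the lowest of its group and still above all samples of the other groups. In WT the log2 fold change was 1.10 ± 0.22 (edgeR adjusted p 0.0399) and 0.14 ± 0.21 in LKO (0.839), and -1.32 ± 0.20 for LKO against WT after tunicamycin (0.0102). With vehicle it was -0.36 ± 0.22 (edgeR adjusted p 0.698), again with no overlap between the genotypes. The WT call ended in 7 of the 13 fits that leave out 1 sample, those without WT vehicle 1, 2 or 3, WT tunicamycin 1, or LKO tunicamycin 2, 3 or 4 (0.93 to 1.13), and with total count scaling (0.93, edgeR adjusted p 0.0552), the replicate block (1.07, 0.0643), the 2-group fit and FPKM. The genotype call ended without WT tunicamycin 1, at -1.15, and with FPKM.

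Sil1 (chromosome 18) encodes the other ER exchange factor for BiP, whose loss causes Marinesco-Sjögren syndrome in people. Its samples spanned 9.12 to 12.8 CPM across all 4 groups, and every pair of groups other than the 2 vehicle groups overlapped. Its log2 fold change was -0.03 ± 0.14 for tunicamycin in WT and 0.07 ± 0.12 in LKO (edgeR adjusted p 0.954 and 0.879). Of the 2 exchange factors of BiP, Hyou1 had a ratio of group means of 2.14 for tunicamycin in WT and Sil1 of 0.976, a difference between genes that was not tested. With vehicle the 3 LKO samples of Sil1, at 9.12, 10.2 and 9.73 CPM, lay below the 3 WT samples, at 10.7, 10.9 and 12.7 CPM, a log2 fold change of -0.23 ± 0.13 that did not pass (edgeR adjusted p 0.684).

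Hsp90b1 (chromosome 10, 86690841 to 86705444) encodes GRP94, the HSP90 of the ER, whose clients include integrins and Toll-like receptors. It was at 239, 260.4 and 281 CPM in WT vehicle and 751, 411 and 717 CPM in WT tunicamycin. LKO samples were at 209, 275 and 236 CPM with vehicle and 315, 245, 276 and 317 CPM with tunicamycin. WT and LKO vehicle samples were intermixed, and LKO tunicamycin reached only slightly above them. On the log2 scale the change was 1.27 ± 0.20 in WT (edgeR adjusted p 0.0170), 0.26 ± 0.19 in LKO (0.632) and -0.11 ± 0.20 between genotypes with vehicle (0.936). It was -1.12 ± 0.19 between genotypes after tunicamycin (edgeR adjusted p 0.0149). The WT call ended without WT vehicle 1, 2 or 3 or WT tunicamycin 1 (1.12 to 1.31), and the genotype call without WT tunicamycin 1 or LKO tunicamycin 3 (-0.97 and -1.10). Both calls also ended with the 2-group fit and with FPKM.

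The 4 J-domain proteins send BiP to different tasks. Dnajb11 (chromosome 16, 22857845 to 22879634) encodes ERdj3, which binds nascent clients and is secreted with them under stress. It was at 19.6, 22.3 and 23.9 CPM in WT vehicle and 49.3, 41.7 and 42.4 CPM in WT tunicamycin. In LKO it was at 18.6, 23.7 and 20.8 CPM with vehicle and 31.3, 23.3, 23.5 and 26.3 CPM with tunicamycin. Its WT response was the most even of the 4 called genes, with all 3 samples near a doubling (folds of 2.24, 1.90 and 1.93 over the vehicle mean), so WT tunicamycin 2 did not stand apart here. Its log2 fold change was 1.02 ± 0.14 in WT (edgeR adjusted p 0.00711, the smallest of the 10) and 0.31 ± 0.13 in LKO (0.356). Between genotypes after tunicamycin it was -0.77 ± 0.13 (edgeR adjusted p 0.0149). The WT call ended without vehicle sample 1 or 2 or tunicamycin sample 1 of WT (0.93, 1.02 and 0.94), and the genotype call without WT tunicamycin 1, LKO tunicamycin 3 or LKO tunicamycin 4 (-0.69, -0.72 and -0.76). On log2(FPKM + 1) both calls ended, and on log2(FPKM + 0.1) the genotype call did.

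Dnajb9 (chromosome 12, 44205897 to 44210068) encodes ERdj4, a classic target of spliced XBP1 that helps BiP to repress IRE1 and feeds clients to ER-associated degradation. It was at 47.8, 36.0 and 34.3 CPM in WT vehicle and 83.7, 26.8 and 61.9 CPM in WT tunicamycin. The LKO values were 21.3, 20.1 and 34.8 CPM with vehicle and 28.1, 18.6, 23.1 and 23.0 CPM with tunicamycin. WT tunicamycin 2 fell below all 3 WT vehicle samples, and the WT groups overlapped. The log2 fold change in WT was 0.55 ± 0.30 (edgeR adjusted p 0.409), in LKO -0.14 ± 0.28 (0.894) and between genotypes with vehicle -0.62 ± 0.30 (0.616). After tunicamycin it was -1.31 ± 0.28 in LKO against WT (edgeR adjusted p 0.0405), close in size to Hyou1 (-1.32) but with overlap, since LKO tunicamycin 1 exceeded WT tunicamycin 2. That call ended in 9 of the 13 fits that leave out 1 sample, those without WT vehicle 1, 2 or 3, WT tunicamycin 1 or 3, or any LKO tunicamycin sample, with log2 fold changes of -0.94 to -1.41, and with total count scaling, the replicate block (-1.24, edgeR adjusted p 0.0657), the 2-group fit and FPKM. Without WT tunicamycin 2 it was -1.65 (edgeR adjusted p 0.000768).

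Dnajc3 (chromosome 14, 118937932 to 118981702) encodes P58IPK, a client-binding partner of BiP whose loss gives diabetes in mice. It was at 131, 129.7 and 132 CPM in WT vehicle and 244, 181 and 209 CPM in WT tunicamycin. In LKO it was at 87.9, 141 and 133 CPM with vehicle and 140, 123, 133 and 137 CPM with tunicamycin. The WT vehicle samples were nearly identical, and all 3 WT tunicamycin samples stood above every other sample. The log2 fold change of 0.69 ± 0.16 in WT did not pass (edgeR adjusted p 0.0755), while -0.67 ± 0.15 between genotypes after tunicamycin did, narrowly (0.0498). That call ended in 9 of the 13 fits that leave out 1 sample (-0.55 to -0.69), those named for Dnajb9, and also with the size factors of DESeq2, total count scaling, the replicate block (-0.68, edgeR adjusted p 0.118), the 2-group fit, LKO vehicle library 4 left out, Rn45s left out and FPKM.

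Dnajc10 (chromosome 2, 80315466 to 80354055) encodes ERdj5, a disulfide reductase with a J domain that opens clients before degradation. It was at 9.58, 10.6 and 12.4 CPM in WT vehicle and 20.4, 18.3 and 15.6 CPM in WT tunicamycin. The LKO values were 9.48, 15.5 and 11.1 CPM with vehicle and 15.5, 19.8, 15.6 and 15.2 CPM with tunicamycin. LKO and WT tunicamycin samples overlapped, and so did LKO vehicle and LKO tunicamycin. Its log2 fold change was 0.74 ± 0.18 in WT and 0.44 ± 0.16 in LKO (edgeR adjusted p 0.0827 and 0.307), and -0.14 ± 0.16 between genotypes after tunicamycin (0.740). None of these passed.

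The 2 lectin chaperones bind the same kind of glycan. Calr (chromosome 8, 84842088 to 84846931) encodes soluble calreticulin, which also buffers ER calcium. It was at 201, 209 and 218 CPM in WT vehicle and 385, 328 and 343 CPM in WT tunicamycin. In LKO it was at 159, 237 and 202 CPM with vehicle and 328, 234, 233 and 248 CPM with tunicamycin. WT tunicamycin lay wholly above WT vehicle, and LKO tunicamycin 1 reached to just under the lowest WT tunicamycin sample. The log2 fold change was 0.75 ± 0.17 in WT and 0.39 ± 0.16 in LKO, neither past the test (edgeR adjusted p 0.0598 and 0.346). Between genotypes after tunicamycin it was -0.43 ± 0.16 (edgeR adjusted p 0.197).

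Canx (chromosome 11, 50293957 to 50325673) encodes calnexin, the membrane-anchored lectin. Its samples ran from 166 to 170.4 CPM in WT vehicle, 175 to 185 in WT tunicamycin, 153 to 167 in LKO vehicle and 130 to 173 in LKO tunicamycin. WT tunicamycin lay just above WT vehicle, and LKO tunicamycin 2 was the low sample. The log2 fold change in WT was 0.10 ± 0.13 (edgeR adjusted p 0.760), and -0.09 with total count scaling. Between genotypes after tunicamycin it was -0.19 ± 0.12 (edgeR adjusted p 0.495). Set beside the promoters printed above, Canx carries the same spaced element as Hspa5, Hsp90b1, Calr and Dnajc3, and its fold of group means in WT was 1.08, against 2.96, 2.41, 1.68 and 1.61 for those genes. Dnajb11, with ERSE-II alone, had a fold of 2.03, and Dnajc10 and Dnajb9, with neither, had folds of 1.66 and 1.46. Hsp90b1 holds the element at 2 sites. Hyou1 and Sil1, with folds of 2.14 and 0.976, had no window to search. Whether the element bears on these folds was not tested.

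**Figure D2:**
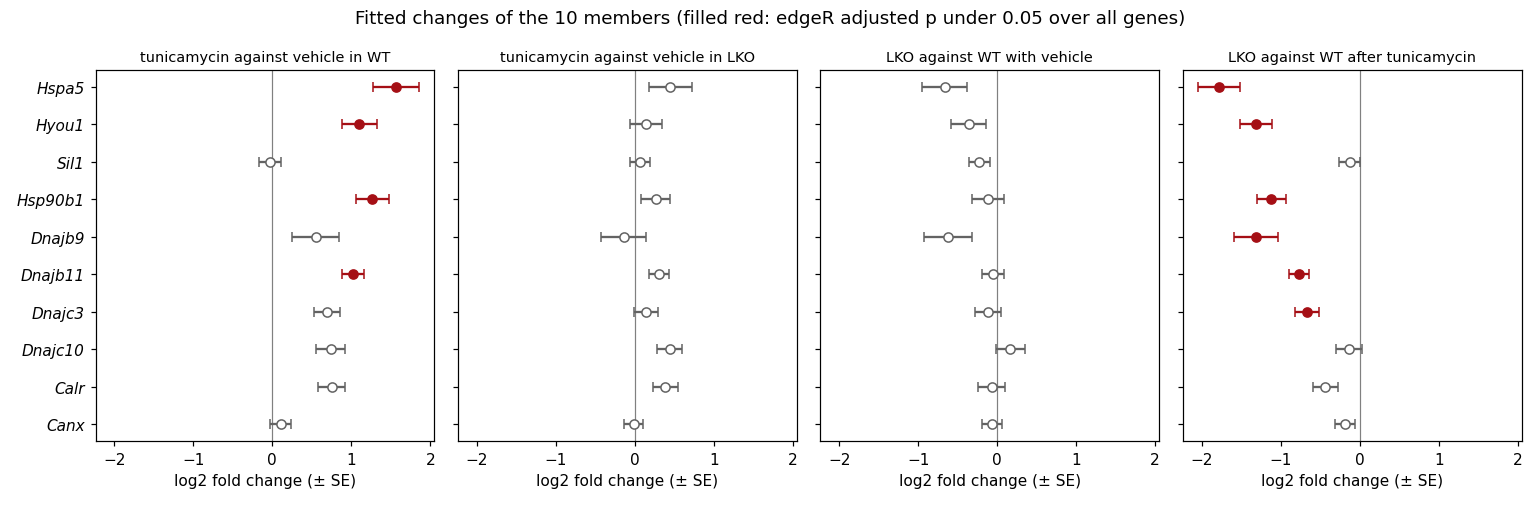
Log2 fold changes with SE (horizontal axis) of the 10 genes in 4 comparisons; filled red points passed edgeR's test at an adjusted p under 0.05 over all genes. In WT 4 points are filled, in LKO and between genotypes with vehicle 0, and between genotypes after tunicamycin 6, all to the left of 0.

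With vehicle alone 0 of the 10 differed between genotypes by edgeR, against 0.0415% of all genes. DESeq2 also called 0 of the 10, and 20 of all 9644 genes. Only Hspa5 passed at an unadjusted p under 0.05, where 8.15% of all genes did. The log2 fold change was below 0 for 9 of the 10, the exception being Dnajc10 at 0.17 ± 0.18, and below 0 for 49.1% of all genes. The median was -0.12, against 0.00 over all genes. The genotypes did not overlap for 3 of the 10, Hspa5, Hyou1 and Sil1, all lower in LKO, where 15.1% of all genes did not overlap. The vehicle samples are shared with the tunicamycin comparisons.

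The difference between the responses of the genotypes was itself tested as an interaction term. By edgeR 0 of the 10 and 0 of all genes passed, so 0% of the background, and the smallest adjusted p over all genes was 0.935. DESeq2 called 0 as well. At an unadjusted p under 0.05 there were 5 of the 10, where 4.91% of all genes passed: Dnajb11 at -0.71 ± 0.19, Hsp90b1 at -1.01 ± 0.27, Hyou1 at -0.96 ± 0.30, Hspa5 at -1.12 ± 0.39 and Dnajc3 at -0.55 ± 0.22 (log2, SE). The term was below 0 for 9 of the 10, all but Sil1 at 0.10 ± 0.18, and for 53.5% of all genes. The median was -0.62, against -0.02 over all genes. The smaller response in LKO was thus not shown to differ from that in WT for any single gene of the set after adjustment.

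Treated samples of a genotype were uneven. Relative to the mean of its own vehicle group, WT tunicamycin 1 had a median fold of 2.0 over the 10 genes (0.953 to 3.88), WT tunicamycin 2 of 1.40 (0.680 to 1.90) and WT tunicamycin 3 of 1.62 (1.10 to 3.57). WT tunicamycin 2 was the lowest of the 3 for 9 of the 10 genes. For Hspa5 the folds were 3.88, 1.42 and 3.57, and for Hsp90b1 2.89, 1.58 and 2.75, whereas for Calr they were 1.84, 1.57 and 1.64. The low sample was therefore low by a different amount from gene to gene, with a wide gap for Hspa5 and for Dnajb9 (2.13, 0.680 and 1.57) and a narrow one for Calr and Dnajb11. Without it the counts called were 4 in WT and 6 between genotypes after tunicamycin, as with it, and the log2 fold changes of Hspa5 were 1.90 and -2.11 (edgeR adjusted p 0.000224 and 3.85e-05). Over all genes 34 and 183 were then called, against 35 and 83 with WT tunicamycin 2 kept. In LKO the median folds were 1.3, 1.02, 1.11 and 1.19 for samples 1 to 4. LKO tunicamycin 1 was the highest of its group for 6 of the 10 genes and LKO tunicamycin 2 the lowest for 8, although LKO tunicamycin 2 had the highest Dnajc10.

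**Figure D3:**
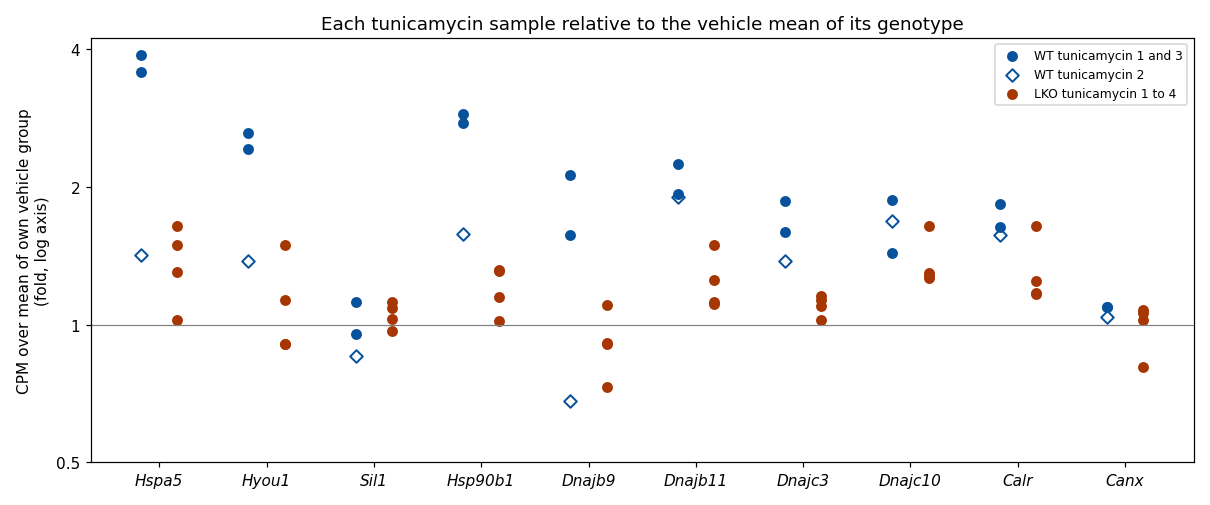
CPM of each tunicamycin sample divided by the mean of the vehicle group of its genotype, on a log axis; blue marks are WT (the open diamond is WT tunicamycin 2) and brown marks are LKO. For Hspa5, WT tunicamycin 1 and 3 sit at 3.88 and 3.57 while WT tunicamycin 2, at 1.42, falls among the LKO samples.

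A ratio of 2 genes within a sample does not depend on how libraries are scaled. Hspa5 reads per Calr read were 0.979, 1.01 and 1.16 in WT vehicle and 2.22, 0.954 and 2.29 in WT tunicamycin. They were 0.800, 0.491 and 0.856 in LKO vehicle and 0.698, 0.606, 0.778 and 0.835 in LKO tunicamycin. Every WT sample lay above every LKO sample, including WT tunicamycin 2, the lowest of the WT samples. Within LKO the vehicle and tunicamycin samples were intermixed. The 2 other ratios that were computed did not part the genotypes. Hsp90b1 reads per Calr read were 1.19 to 2.09 in WT and 0.962 to 1.31 in LKO, and Hspa5 FPKM per Canx FPKM was 2.59 to 9.89 in WT and 1.49 to 3.11 in LKO. Ratios of further pairs of these genes were not computed, so the parting is not shown to be particular to Hspa5 and Calr. The ratio of Hspa5 to Calr shows unequal change of these genes and not which of them changed.

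The summed abundance of the 10 genes was 1068 to 1185 CPM in WT vehicle and 1572 to 2711 in WT tunicamycin. It was 826 to 1043 CPM in LKO vehicle and 979.7 to 1318 in LKO tunicamycin. Of the reads other than Rn45s, they took 0.426% to 0.465%, 0.512% to 0.985%, 0.325% to 0.402% and 0.349% to 0.484% in the same order of groups. WT tunicamycin did not overlap any other group on either scale, and LKO tunicamycin overlapped both vehicle groups.

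**Figure D4:**
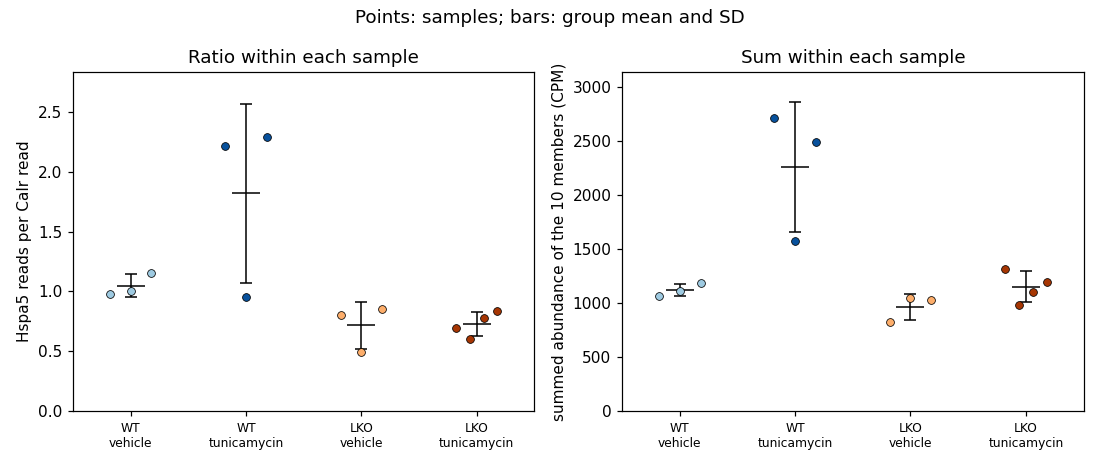
Left, Hspa5 reads per Calr read in each sample; right, the summed CPM of the 10 genes; points are samples and bars are group mean and SD. In the ratio all WT samples (0.954 to 2.29) lie above all LKO samples (0.491 to 0.856), and in the sum the 3 WT tunicamycin samples (1572 to 2711) lie above all others.

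Treated knockouts were also set against untreated controls, which asks where LKO liver under tunicamycin stood relative to a resting WT liver. Of the 10 genes 1 passed, Dnajc10, higher by a log2 fold change of 0.60 ± 0.17 (edgeR adjusted p 0.0384), where 8.26% of all genes passed and 4% were higher. The 4 LKO tunicamycin samples, at 15.2 to 19.8 CPM, lay above the 3 WT vehicle samples, at 9.58 to 12.4 CPM. The call ended in 6 of the 13 fits that leave out 1 sample, those without WT vehicle 1, 2 or 3 or LKO tunicamycin 1, 2 or 3 (0.51 to 0.70). Hspa5 stood at -0.21 ± 0.26, Hyou1 at -0.22 ± 0.21, Hsp90b1 at 0.15 ± 0.19 and Dnajc3 at 0.02 ± 0.15 on the log2 scale (edgeR adjusted p 0.678, 0.564, 0.684 and 0.948). Dnajb9 was at -0.76 ± 0.28 (edgeR adjusted p 0.104) with all 4 LKO samples below all 3 WT samples. It passed with no filter on low counts, with only these 2 groups fitted and without WT tunicamycin 2, so the count was 2 there. Calls over all genes in those fits were 1143 of 16251 tested, 1384 of 9311 and 850 of 9951, in the same order. Calr, at 0.32 ± 0.16 (edgeR adjusted p 0.232), was the third gene with no overlap, where 25.5% of all genes did not overlap. This comparison shares its samples with those above, and genotype and treatment cannot be told apart in it.

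Levels of the genes can be set against each other only per length, as FPKM, for which LKO vehicle libraries 3 and 4 were averaged. In WT vehicle the order of mean FPKM was Hspa5 at 42.5 ± 5.38 (SD, n = 3), Calr at 41.8 ± 0.733, Hsp90b1 at 32.4 ± 2.15, Canx at 14.5 ± 0.457, Dnajb9 at 10.7 ± 2.07, Dnajc3 at 10.3 ± 0.417, Dnajb11 at 4.21 ± 0.595, Hyou1 at 3.93 ± 0.256, Sil1 at 3.44 ± 0.360 and Dnajc10 at 1.01 ± 0.151. Neighbours overlapped between Hspa5 and Calr, between Dnajb9 and Dnajc3 and between Dnajb11 and Hyou1. In WT tunicamycin Hspa5 led at 117 ± 57.1, with Hsp90b1 at 71.6 ± 24.8 and Calr at 64.5 ± 9.75, each overlapping the next. In LKO vehicle the order at the top was Calr at 42.2 ± 8.79, Hsp90b1 at 32.0 ± 5.67 and Hspa5 at 27.6 ± 5.96, again with overlap. In LKO tunicamycin (n = 4) Calr led at 54.3 ± 9.21, then Hspa5 at 37.9 ± 8.08 and Hsp90b1 at 36.6 ± 5.91, each overlapping the next. Dnajc10 was the lowest in all 4 groups, at 1.01 to 1.59 FPKM.

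**Figure D5:**
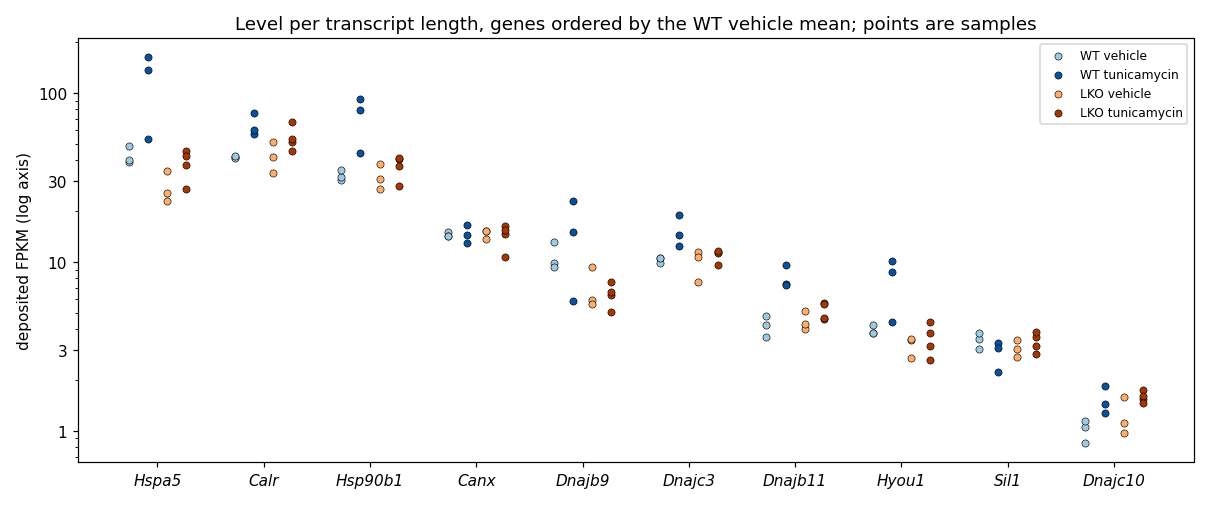
Deposited FPKM of the 10 genes on a log axis, ordered by the WT vehicle mean; points are samples, coloured by group. Hspa5 moves from a WT vehicle mean of 42.5 to 117 in WT tunicamycin and lies at 27.6 in LKO vehicle, while Canx stays between 14.3 and 14.7 in the mean of every group.

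The rest of the ER folding machinery gives the setting of these genes. Of a list of 29 other folding and quality control genes, 28 were tested. In WT 5 rose past the test and 0 fell: Sdf2l1, a partner of ERdj3, by 1.69 ± 0.28, the disulfide isomerase Pdia4 by 1.63 ± 0.22, the BiP-binding factor Manf by 1.45 ± 0.28, the prolyl isomerase Fkbp11 by 1.31 ± 0.22 and Pdia3, the disulfide isomerase that works with the lectins, by 0.77 ± 0.16 (log2, SE; edgeR adjusted p 0.0170, 0.00711, 0.0399, 0.0212 and 0.0417). In LKO 0 of the 28 passed by edgeR, and 5 had an unadjusted p under 0.05, 4 of them above 0 and 1 (Ero1a, at -0.30) below, where 12.2% of all genes had one. After tunicamycin 4 were lower in LKO than in WT and 0 higher: Creld2 at -3.0 ± 0.44, Manf at -1.43 ± 0.26, Pdia4 at -1.04 ± 0.20 and Ero1b, an oxidase that recharges the isomerases, at -0.98 ± 0.21 (edgeR adjusted p 0.0102, 0.0194, 0.0240 and 0.0414). Medians were 0.44 in WT and -0.34 between genotypes. Over all genes 0.363% changed in WT and 0.861% differed between genotypes after tunicamycin. Both comparisons called 0 of all genes without WT tunicamycin 1, so the calls above ended there. Fkbp11 was the gene of this list that passed in LKO tunicamycin against WT vehicle, at 1.09 ± 0.21 (edgeR adjusted p 0.00664). The ERSE was in 3 of the 25 windows held for this list, those of Creld2, Ero1b and Pdia6.

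Of 9 sensors and factors of the unfolded protein response, 2 rose in WT and 0 fell: Ddit3 (CHOP) by 3.71 ± 0.72 and Xbp1 by 0.76 ± 0.16 (log2, SE; edgeR adjusted p 0.0399 and 0.0465). After tunicamycin 1 was lower in LKO, Ddit3 at -4.02 ± 0.66 (edgeR adjusted p 0.0149). Over all genes 0.363% changed in WT and 0.861% differed between genotypes after tunicamycin. Both comparisons called 0 of all genes without WT tunicamycin 1, so these calls ended there. With tunicamycin in LKO 0 of the 9 passed, and 0 had an unadjusted edgeR p under 0.05, where 12.2% of all genes had one.

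The cytosolic and mitochondrial HSP70 and HSP90 families are relatives of the ER genes outside the secretory pathway. Of 24 genes 23 were tested, and 0 passed by edgeR in WT, where 6 were lower and 0 higher at an unadjusted p under 0.05, as were 14.8% of all genes in either direction. The median log2 fold change was -0.18 in WT, against 0.75 for the ER set. After tunicamycin 1 was lower in LKO, Dnaja3, a mitochondrial J protein, at -0.55 ± 0.12 (edgeR adjusted p 0.0405), and the median was -0.27. Over all genes 0.861% differed in that comparison. In LKO tunicamycin against WT vehicle 9 of the 23 were lower and 0 higher, where 8.26% of all genes passed in either direction, among them, chosen after their values were seen, Hspa1b at -2.19 ± 0.38, Hsph1 at -1.19 ± 0.22 and Dnaja1 at -0.71 ± 0.13 (edgeR adjusted p 0.00512, 0.00608 and 0.00533). Hspa1b has a near-identical copy, Hspa1a, with which it can share reads. The ERSE was in 0 of the 19 windows held for this list.

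The 10 genes were compared with each other and with the rest by their profile over the 13 samples, which share libraries and groups, so correlations are a description only. Pearson's r of log2 CPM was highest between Hspa5 and Hyou1 (0.97), Calr and Dnajb11 (0.96) and Hsp90b1 and Hyou1 (0.95). Within groups, after removing each group's mean, that of Hspa5 was 0.88 with Dnajb9, 0.86 with Hsp90b1 and with Hyou1, 0.37 with Calr and -0.19 with Dnajc10. Over all samples it was 0.41 between Hspa5 and Dnajc10, 0.01 between Dnajb9 and Dnajc10 and 0.00 between Canx and Dnajc10. The nearest gene to Dnajc10 was Calr (0.79). Among the 3957 more abundant genes outside the set, the 5 most like the mean profile of the set were Sel1l (r 0.99), Atp2a2 (0.97), Manf (0.95), Pdia3 (0.95) and Creld2 (0.93). Sel1l, the adaptor of an ER ubiquitin ligase, averaged 69.8 ± 2.46 CPM (SD, n = 3) in WT vehicle, 123 ± 32.0 in WT tunicamycin, and in LKO 64.1 ± 6.06 with vehicle and 71.0 ± 7.35 (n = 4) with tunicamycin. Atp2a2, the calcium pump of the ER, averaged 56.3 ± 1.47, 86.3 ± 17.8, 47.8 ± 6.65 and 53.1 ± 3.56 CPM in the same order. In both the 3 WT tunicamycin samples lay above all other samples, as they did for Hspa5. The same held for Pdia3 and Creld2 but not for Manf. The lowest WT tunicamycin sample of Manf was at 33.7 CPM and its highest LKO tunicamycin sample at 37.3. The 5 genes were picked by their likeness to the set over these same samples, so the shared pattern is no separate result.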

How the data were processed

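Polyadenylated RNA from 14 liver libraries was sequenced by the authors. The deposited tables give raw read counts per gene and strand and, for the whole series, FPKM. The authors' processing notes name Trimmomatic, STAR and Cufflinks and the build mm10, with versions not given in the sources used here. Sense-strand counts (99.5% to 99.6% of stranded gene reads) were used; the summary lines for multimapping, ambiguous and unassigned reads (47.7% to 52.4%) were left out. After summing LKO vehicle libraries 3 and 4, edgeR 4.0.16 in R 4.3.3 filtered genes by group, scaled by TMM and fitted 1 mean per group over 13 samples with the quasi-likelihood test. Benjamini-Hochberg adjustment ran over all 9644 genes. Alternatives used DESeq2 1.42.0, limma 3.58.1 on log2(FPKM + 1) or log2(FPKM + 0.1) with a mean FPKM of at least 1 or no filter, other scalings, filters and sample sets, and each sample left out. Scripts were tested on simulated data. Named genes outside the set are the up to 3 of smallest p per list and direction between genotypes after tunicamycin, and the 5 most similar profiles among genes whose log2 CPM averaged 3 or more; other called genes of these lists were named after their values were seen. The members and lists were chosen with earlier results of these data known. Same replicate numbers did not mark pairs in the labels.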

Additional observations from a re-analysis of the deposited data

Results flagged for a closer look

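Of the 10 groups of 4 samples examined, the 10 genes in LKO tunicamycin, 2 held a sample far from the other 3 by Dixon's ratio, for which chance alone gives about 1 in 20. Calr was highest in LKO tunicamycin 1, at 328 CPM (ratio 0.838, critical value 0.829). Dnajc10 was highest in LKO tunicamycin 2, at 19.8 CPM (ratio 0.915). The other groups have 3 samples and were not examined.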

How the results depend on the processing

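The number of genes called for tunicamycin in WT, 4 of 10, became 7 with DESeq2 and with no filter on low counts, 1 with only the 2 groups of the comparison fitted, 0 on log2(FPKM + 1) with or without the filter, 1 on log2(FPKM + 0.1), and 0 to 7 when each sample was left out in turn. The 6 called between genotypes after tunicamycin became 3 with only 2 groups, 0 in the 3 FPKM fits and 0 to 6 with a sample left out. The 1 called in LKO tunicamycin against WT vehicle became 2 with no filter or only 2 groups, 0 in the 3 FPKM fits and 0 to 2 with a sample left out. Calls over all genes in that comparison were 1143 of 16251 tested with no filter, 1384 of 9311 with only 2 groups and 193 to 365 on FPKM. With a sample left out, calls over all genes ran from 0 to 615 in WT and 0 to 183 between genotypes after tunicamycin. In LKO tunicamycin against WT vehicle they ran from 193 to 1097. For tunicamycin in LKO, genotype with vehicle and the interaction the count of the 10 genes called was 0 under every alternative run. The replicate numbers did not pair samples: over 18 pairs of the same number the correlation of deviations ran from -0.118 to 0.141, and 2 of 13 samples correlated best with their own number. With a replicate block 3 were called in WT, where Hyou1 was lost, 4 between genotypes after tunicamycin, where Dnajb9 and Dnajc3 were lost, 1 in the last comparison and 0 in the others. Over all genes that block gave 38 calls in WT, 32 between genotypes after tunicamycin and 771 in the last comparison.

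Total count scaling shifted the median over all genes to -0.18 in WT, 0.14 between genotypes after tunicamycin and 0.13 in the interaction. It gave 3 calls among the 10 in WT and 4 between genotypes after tunicamycin. Calls over all genes rose with that scaling to 148 and 164, from 35 and 83 in the full fit. Signs turned only for small values that did not pass. With total count scaling these were Canx at -0.0850 in WT and 0.0362 in the interaction, Sil1 at 0.0207 and Dnajc10 at 0.00834 between genotypes after tunicamycin, and Dnajc3 at -0.0164 in LKO tunicamycin against WT vehicle. Values on log2(FPKM + 1), the same with and without the filter, and on log2(FPKM + 0.1) were 0.0168 and 0.0177 for Canx and 0.0685 and 0.0829 for Dnajb11 between genotypes with vehicle, and 0.178 and 0.231 for Sil1 and 0.0472 and 0.0775 for Dnajc10 after tunicamycin. With library 4 left out Sil1 was at -0.0159 for tunicamycin in LKO. With each sample left out in turn, Sil1 ran from -0.142 to 0.0552 in WT. For tunicamycin in LKO, Canx ran from -0.0507 to 0.0839, Dnajb9 from -0.291 to 0.163, Dnajc3 from -0.0410 to 0.267 and Hyou1 from -0.0294 to 0.238. Between genotypes with vehicle, Dnajc3 ran from -0.247 to 0.0552, Dnajb11 from -0.151 to 0.00959, Dnajc10 from -0.0628 to 0.285 and Calr from -0.215 to 0.0607, and in LKO tunicamycin against WT vehicle Canx ran from -0.119 to 0.0146. The causes were not tested. Dnajc10 and Sil1 had the lowest counts of the set, and 3 or 4 samples per group limited what could be called.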
